A study of Mus musculus with 8 samples.

Results

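The regions described here are 963 stretches of open chromatin in mouse retina that were present in wild type (WT) and in Spata7 knockout (KO) but were much shorter in the knockout. They were selected on measured values, the peak lengths in the 2 deposited peak lists: a WT peak annotated as distal and not promoter had to overlap exactly 1 KO peak, that KO peak had to overlap no other WT peak, and the KO peak had to be at most 0.5 times as long. The WT list held 56797 peaks, of which 43214 were distal and not promoter, and the KO list held 91130 peaks. Of the 43214 WT distal peaks, 3259 overlapped no KO peak, 338 overlapped 2 or more, and 37605 formed pairs that were unique in both directions. The 963 narrowed pairs were 2.56% of those 37605. Since the lengths chose the members, the lengths and the shares built on them are given as description, with no test.

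The series profiled retina of male mice, with C57BL6/J animals as WT and a Spata7 mutant, called knockout in the sample names, as the other genotype. Single-nucleus ATAC sequencing was done on 1 WT library at 7 months of age and 1 KO library at 6 months, so genotype, library and 1 month of age cannot be told apart in any peak comparison. RNA was sequenced from single cells or nuclei in nanowells, with 1 library per genotype at 1, 3 and 6 months. The labels name no replicate animals and do not say how many mice went into a library.

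Rods make up most of the mouse retina, and they convert light into a change in membrane current through the phototransduction cascade: light leads to activation of transducin, transducin activates a cyclic GMP phosphodiesterase, and the fall in cyclic GMP closes cation channels. SPATA7 is a protein of the photoreceptor connecting cilium, the narrow bridge to the outer segment, and its loss causes retinal degeneration in mouse and human. Distal open chromatin often marks enhancers, the binding platforms of transcription factors such as CRX and NRL that drive rod genes. A peak's length follows from where a caller sets its edges, so a shorter peak is a narrower stretch of called signal and not by itself a measure of signal height.

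To show what narrowing looked like at base level, sequences were read from the RefSeq windows around gene starts (GRCm38.p6, the same build as mm10), which overlapped 5 of the narrowed peaks searched. For 3 of these 5, in Pdcd4 and Rbm20, Prex1 and Plxnb1, the KO peak lay outside the window. The other 2 are printed on the plus strand, with the bases that stayed inside the KO peak in capitals and the bases that were inside only the WT peak in lower case. The first lies in the body of Galnt10, an enzyme that starts O-linked glycosylation, 25534 bases downstream of its start. There the WT peak ran over 259 bases and the KO peak over 128, and 257 bases at chr11:57671001-57671257 fall in the window.
Galnt10 peak: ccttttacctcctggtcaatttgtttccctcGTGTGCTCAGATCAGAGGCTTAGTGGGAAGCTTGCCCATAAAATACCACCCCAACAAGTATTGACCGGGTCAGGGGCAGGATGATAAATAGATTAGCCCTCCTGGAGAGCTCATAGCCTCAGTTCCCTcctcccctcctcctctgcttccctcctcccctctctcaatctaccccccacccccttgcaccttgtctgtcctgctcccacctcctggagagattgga
The second lies in the RefSeq body of Tgfbr1, the type I receptor for TGF-beta, and the list gives its distance to a Tgfbr1 start as -3611 bases, with negative meaning upstream. The WT peak was 314 bases long and the KO peak 134, and the 250 bases at chr4:47382292-47382541 fall in the window.
Tgfbr1 peak: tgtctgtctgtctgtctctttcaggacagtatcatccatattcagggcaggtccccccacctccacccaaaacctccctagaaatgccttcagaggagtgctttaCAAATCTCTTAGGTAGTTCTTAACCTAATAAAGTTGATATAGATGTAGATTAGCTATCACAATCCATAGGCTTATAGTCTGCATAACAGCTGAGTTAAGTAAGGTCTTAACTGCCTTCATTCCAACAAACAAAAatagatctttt
In both, the KO peak sat inside the WT peak and both flanks were lost. The share of G and C was 50.8% in the retained Galnt10 bases against 54.5% over the whole printed stretch, and 33.6% against 40% at Tgfbr1.

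Promoters were also read for phototransduction genes with 2 or more narrowed distal peaks, since those promoters stayed open in both lists; the Pde6a promoter was not analysed here for sequence. The 300-base windows run from 250 bases before to 50 after the RefSeq start and are printed in the gene's direction. Capitals mark TAATCC, the core of CRX and OTX sites, or TGCTGA, part of the NRL site, searched on both strands. The Abca4 window at chr3:122044210-122044509, plus strand, lay inside a promoter peak of 7388 bases in WT and 7170 in KO and held 1 TAATCC match, on the other strand, 58 bases before the start.
Abca4 promoter: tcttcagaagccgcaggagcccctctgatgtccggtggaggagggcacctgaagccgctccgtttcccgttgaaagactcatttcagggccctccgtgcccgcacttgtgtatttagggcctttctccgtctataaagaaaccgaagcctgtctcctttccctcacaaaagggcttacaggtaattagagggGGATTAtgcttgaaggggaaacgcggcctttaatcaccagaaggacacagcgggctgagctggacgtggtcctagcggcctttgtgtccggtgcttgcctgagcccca
The Cnga1 window at chr5:72642703-72643002, minus strand, lay inside a peak of 4341 bases in WT and 4061 in KO and held 1 TAATCC match.
Cnga1 promoter: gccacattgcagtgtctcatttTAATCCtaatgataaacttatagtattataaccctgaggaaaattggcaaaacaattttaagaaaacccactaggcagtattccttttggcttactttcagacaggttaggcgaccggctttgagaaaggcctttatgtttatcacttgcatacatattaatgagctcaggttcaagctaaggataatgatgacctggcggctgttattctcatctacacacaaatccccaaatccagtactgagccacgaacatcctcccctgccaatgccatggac
The Rgs9 window at chr11:109298132-109298431, minus strand, lay inside a peak of 4838 bases in WT and 2734 in KO and held 1 TGCTGA match.
Rgs9 promoter: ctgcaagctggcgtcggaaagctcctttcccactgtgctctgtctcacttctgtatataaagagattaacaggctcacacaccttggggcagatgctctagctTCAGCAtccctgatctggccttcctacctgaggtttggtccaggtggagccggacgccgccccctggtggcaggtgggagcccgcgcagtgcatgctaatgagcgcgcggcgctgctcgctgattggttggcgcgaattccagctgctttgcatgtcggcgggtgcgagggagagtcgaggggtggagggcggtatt
The windows of Gnb1, Slc24a1 and Pdc held neither motif. Across 17491 protein-coding RefSeq promoter windows, 6.48% held TAATCC and 17.9% held TGCTGA, and across the 718 windows of genes with a narrowed distal peak the shares were 6.27% and 14.1%. For the 113 windows of genes with 2 or more narrowed peaks they were 5.31% and 20.4%. The homeobox core TAATTA was in 4.67% of all windows and in 1.11% of those 718, and the GC box GGGCGG was in 46.3% and 66.99%. The 17491 windows were not limited to genes with a shared distal peak. Genes with only other shared distal peaks were not analysed apart, so no difference in these shares is put down to narrowing. A match is a description of letters and not a bound site, and motifs inside the narrowed peaks themselves were not analysed here.

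The typical narrowed peak lost about 300 bases. The median WT length was 401 bases, from 7 to 4995, and the median KO length was 122 bases, from 1 to 1822. The median KO to WT length ratio was 0.315, with quartiles of 0.161 and 0.414. The other 36642 shared distal pairs had median lengths of 487 bases in WT and 626 in KO, with a median ratio of 1.12, so most shared distal peaks were called longer in the KO list. Of all 37605 pairs, 6357 were at least 2 times as long in KO. The KO peak of 224 members was shorter than 50 bases, and only 233 KO peaks that short occurred among all 37605 pairs. The 739 members with a KO peak of at least 50 bases had medians of 441 bases in WT and 156 in KO.

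**Figure D1:**
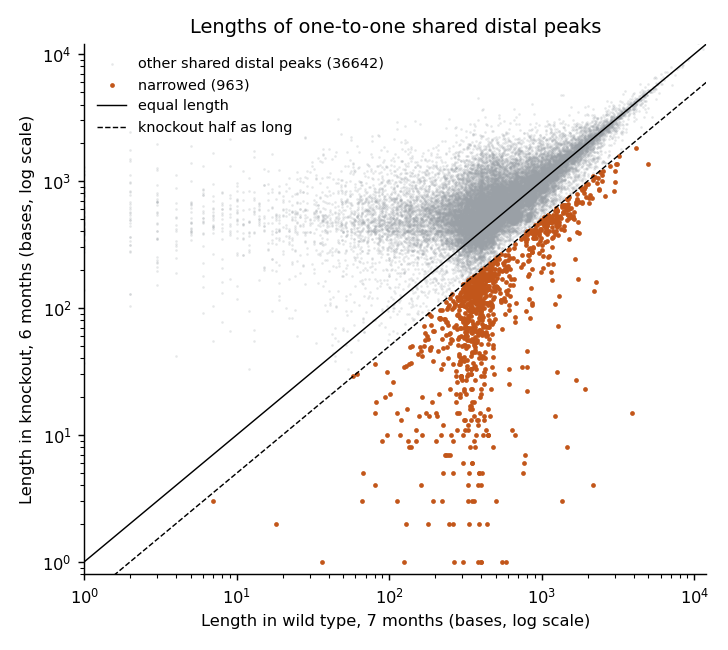
Length in bases of each distal peak pair in the WT list at 7 months (horizontal, log scale) and in the KO list at 6 months (vertical, log scale). The 963 narrowed pairs (orange) lie on or below the dashed line that chose them, and the 36642 others (grey) lie above it, with a median ratio of 1.12.

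The narrowed share was highest for WT peaks from 300 to 400 bases, at 292 of 5769 (5.06%), followed by those from 200 to 300 bases, at 106 of 2726 (3.89%), and those from 1000 to 1500 bases, at 118 of 3334 (3.54%). Between the shorter and the longer range the share dropped to 0.909% for peaks from 500 to 750 bases. Among the 182 narrowed peaks of at least 1 kb in WT, the median KO length was 514 bases, close to the KO list median of 508 bases, and the median ratio was 0.405. The pairs nearest the threshold were alike on both sides: a peak at Ipo7 and Zfp143 went from 506 to 253 bases and was counted, and a peak near Mff went from 489 to 245 bases and was not. The other members nearest the threshold, at Ttyh2, at Kmt2e and Srpk2 and near Dusp9, were 342, 330 and 306 bases long in WT, and the next pairs not counted included those near Pawr and Tmx1, of 471 and 401 bases.

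The KO peak lay wholly inside the WT peak in 877 of the 963 (91.1%), and in 862 both ends were trimmed. In the other shared pairs it lay inside in 22.8%, and both ends were trimmed in 7274 of 36642. A KO peak chosen to be at most 0.5 times as long lies inside more readily, so these shares follow in part from the choice. The midpoint of the KO peak was displaced from that of the WT peak by a median of 20.8% of the WT length, against 4.75% in the other shared pairs, although a short peak has more room to lie off centre. The largest loss was in the body of Abca4, at chr3:122073485-122077405, where a WT peak of 3920 bases faced a KO peak of 15 bases, with 1161 bases gone on the left and 2744 on the right. Next came an intragenic Pde6a peak at chr18:61283369-61288364, from 4995 to 1360 bases, and an Ankrd44 peak at chr1:54858974-54863099, from 4125 to 1822 bases. A Sipa1l2 peak at chr8:125526957-125529138 went from 2181 to 4 bases. An Ntng2 peak went from 2967 to 827 bases, a second Pde6a peak from 2269 to 159, a peak named for the clone-based gene AC127333.1 from 2204 to 136, and a Sik3 peak from 3032 to 977. Sik3 encodes a salt-inducible kinase and Ntng2 encodes netrin-G2, a membrane-anchored synaptic adhesion protein.

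Narrowed peaks lay more often within genes than the other shared distal peaks did. In all, 713 of 963 (74.0%) overlapped the body of a RefSeq protein-coding gene, against 62.98% of the others. Among peaks of at least 1 kb in WT the shares were 75.3% and 64.8%. The list gives a distance of 0 to a gene for 204 members (21.2%), against 16.97% of the others. Where the list gave a distance to a start, the median was 18414 bases for 942 members and 21258 for the others. Members lay downstream of that start in 614 of the 942 (65.2%), against 60.7% of the others. Shares within 10 kb of the start were 29.2% and 28.6%. A second KO peak stood within 1 kb of an end of the WT peak in 184 members (19.1%), against 11.9% of the other pairs. The gap between that second peak and the paired KO peak was not analysed here. Peaks are not replicates and each list came from 1 library, so these shares carry no test.

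The list named 968 genes for the 963 members. Of these, 826 had 1 member, 110 had 2, 27 had 3 and 3 had 4. Abca4, the outer segment flippase that clears retinal byproducts of the visual cycle, had the most, with 8 of its 30 shared distal peaks narrowed. Their WT lengths ranged from 251 to 3920 bases and their KO lengths from 11 to 339, and all 8 lay inside the gene. Loss at Abca4 went beyond the members: the WT list held 53 distal peaks named for it, spanning 38725 bases, and the KO list 35, spanning 23200. Of the 53, 22 had no KO counterpart, and 3 KO peaks had no WT counterpart. Its promoter peak kept 0.97 times its WT length.

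Pde6a, the alpha subunit of the rod cyclic GMP phosphodiesterase, had 4 of 9 shared distal peaks narrowed. Its distal peaks covered 42613 bases in WT and 18451 in KO, and its promoter peak went from 6317 to 5860 bases. Alpl, tissue-nonspecific alkaline phosphatase, had 4 of 7 narrowed, with KO peaks of 3, 14, 27 and 748 bases; 2 of them also carried the name of Rap1gap, a GTPase-activating protein for Rap. Its promoter peak went from 1601 to 1148 bases, the lowest ratio (0.717) among the 24 genes with 3 or more narrowed peaks and a promoter pair. Fgfr2, a fibroblast growth factor receptor, was named for 4 of its 93 shared distal peaks. All 4 stood at a listed distance of 0 but inside the RefSeq bodies of the neighbouring Fam53b or Abraxas2, the gene that the list names by the older symbol Fam175b. The clone-based gene AC114005.5 was named for 5 of 212, each at a listed distance of 0 and each beside a second gene, at starts from chr8:120562017 to chr8:123993740.

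Phototransduction was the fixed gene list with the highest share of narrowed peaks. Of 132 shared distal peaks named for its 24 genes, 28 were narrowed (21.2%, against 2.56% of all shared distal pairs), at 11 genes, and 23 of the 28 kept a KO peak of at least 50 bases. The list's median length ratio was 0.860, against 1.105 over all shared distal pairs. At the transducin step, Gnb1, the beta subunit, had 3 of 5 narrowed, at chr4:155500285-155501062 from 777 to 7 bases, at chr4:155504248-155506304 from 2056 to 782, and at chr4:155508792-155509463 from 671 to 77. The distal peaks named for Gnb1 numbered 7 in WT and 13 in KO and covered 12344 and 14908 bases. Peaks of every type that reach into the stretch drawn in the plot of peaks around Abca4 and Gnb1 numbered 9 in WT and 11 in KO at Gnb1 and covered 50336 and 36424 bases, so the direction of the sum depends on which peaks are counted. At the phosphodiesterase step stood the 4 Pde6a peaks, from 665 to 316, 829 to 292, 2269 to 159 and 4995 to 1360 bases.

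At the channel step, Cnga1, the alpha subunit of the rod cyclic-nucleotide-gated channel, had 2 of 5 narrowed, from 1082 to 444 bases and from 950 to 393. Cngb1, its beta subunit, had 1 of 10, from 1950 to 749 bases. Slc24a1, the exchanger that removes calcium from the rod outer segment, had 2 of 4, from 1160 to 355 and from 646 to 246 bases. Both subunits of the channel and the exchanger were therefore among the members.

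Regulators of the cascade held 8 more, and the remaining 8 were the Abca4 peaks described above. Rgs9, which speeds transducin shut-off, had 3 of 11 narrowed, from 821 to 237, 555 to 224 and 545 to 68 bases. Gnb5, the partner of Rgs9, had 1 of 11, from 1665 to 685 bases. Pdc, phosducin, which binds transducin beta-gamma, had 2 of 6, from 1052 to 479 and from 274 to 32 bases. The start of Pdc itself lay in a peak of 6403 bases in WT and 1711 bases in KO. Guca1a, an activator of the guanylate cyclase, had 1 of 2, from 327 to 130 bases. Rcvrn, recoverin, a calcium sensor of photoreceptors, had 1 of 9, a peak of 358 bases that became 125 and that lay in the bodies of Gas7 and Glp2r.

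The photoreceptor transcription factors had 8 narrowed peaks of 135 (5.93%), at 7 genes, all with a KO peak of at least 50 bases, while 16 of the 135 were at least 2 times as long in KO. Otx2, an upstream regulator of photoreceptor fate, had a peak at a listed distance of -105507 bases that went from 433 to 60 bases, and Prdm1, which holds back bipolar fate, had one at -108443 bases that went from 468 to 105. Mef2d, a partner of CRX at retinal enhancers, had 2, from 1285 to 72 and from 584 to 137 bases. Esrrb, Casz1, Neurod1 and Samd11 had 1 each, and of these the Samd11 peak, from 1012 to 466 bases, was shared with Noc2l. Ribbon synapse genes had 8 of 148 (5.41%), among them Cacna2d4, a subunit of the photoreceptor calcium channel, from 798 to 46 bases, and Cplx4, a complexin of ribbon terminals, from 504 to 148. Only 4 of those 8 had a KO peak of at least 50 bases, and 18 of the 148 were at least 2 times as long in KO.

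The other gene lists lay near or below the overall share. Cilium and outer segment genes had 4 of 156 (2.56%), among them Rp1l1, an axonemal protein, from 1925 to 23 bases, the cadherin gene Cdh23 from 336 to 17, and Lca5, which encodes the ciliary protein lebercilin, from 118 to 10. Chromatin regulators had 6 of 231 (2.60%), among them peaks at Crebbp, Dnmt3a, Kdm1a and Kdm5b. Inner retina transcription factors had 2 of 147, at Meis1 and Meis2, while 51 of the 147 were at least 2 times as long in KO. The stress and gliosis list had 1 of 79, at the cytokine gene Lif. Among cell type markers, rod markers had 15 narrowed of 82 (18.3%), and 14 of the 15 were at genes that the phototransduction list also holds. Cone markers had 1 of 45 (Opn1mw), bipolar markers 1 of 79 (Otx2) and ganglion cell markers 1 of 15 (Isl2). There were 0 narrowed of 51 for Müller glia, and 0 for the amacrine, horizontal, retinal pigment epithelium, endothelial, pericyte, microglia and astrocyte markers, which had between 5 and 28 shared distal peaks each. At the overall share of 2.56%, few or none would be found among so few peaks, so each 0 says little.

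The share of narrowed peaks followed the RNA of the nearest gene. Genes were classed by their RNA in the 3 WT libraries, as higher or lower in all 3 in the wells with the larger share of reads on 20 rod markers (called rod-rich, the upper part of each library cut at its median) than in the other wells. Of shared distal peaks nearest a gene over 2-fold higher in rod-rich wells in all 3, 44 of 619 were narrowed (7.11%). The share was 4.99% (137 of 2747) for genes higher in all 3 but not over 2-fold in each. It was 2.92% (350 of 11970) for genes of mixed direction. Among genes lower in all 3, it was 2.18% (99 of 4538) when not over 2-fold in each and 1.21% (44 of 3637) when over 2-fold in each. For genes under 5 CPM (reads scaled by the total of each library) it was 1.88% (217 of 11569). Widening ran the other way, with 8.89% of pairs at least 2 times as long in KO in the first class and 26.9% in the fifth. With KO peaks under 50 bases left out, the narrowed share still stepped from 5.74% in the first class to 0.965% in the fifth. With the 20 rod markers left out, the first class stood at 5.42%. Median WT length differed between these classes too, from 600 bases in the first to 455 in the fifth; among WT peaks of at least 500 bases the shares were 7.82% and 0.772%. The share of cells of each type in the 2 ATAC libraries was not analysed here, so fewer rods and less open chromatin per rod cannot be told apart.

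**Figure D2:**
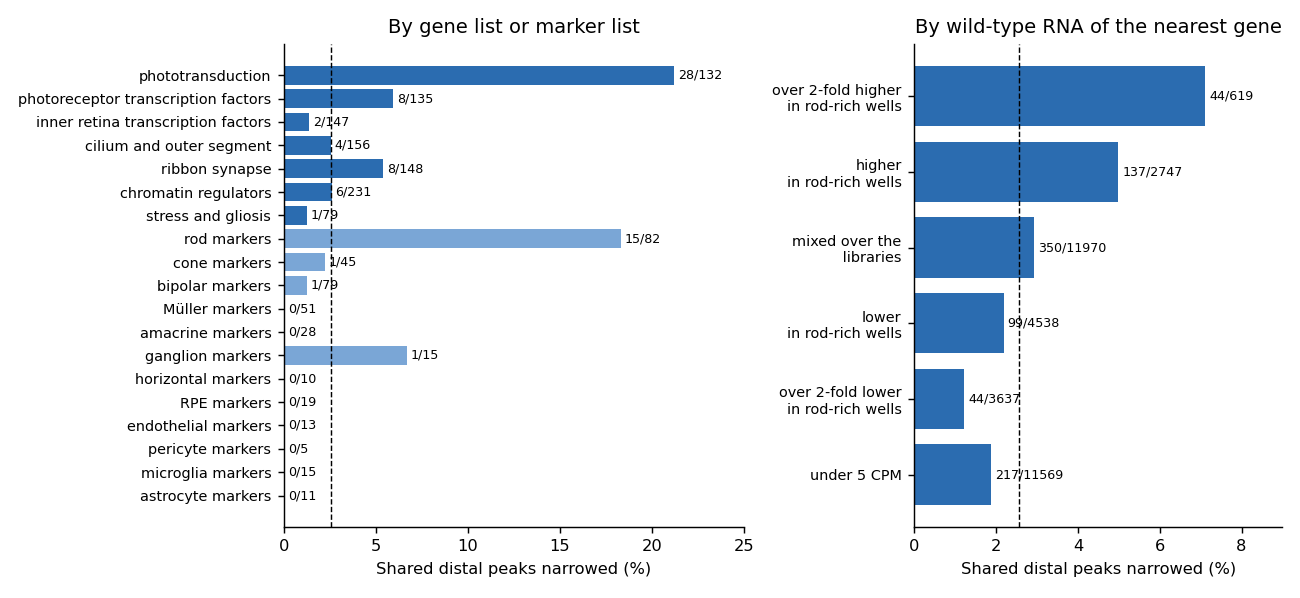
Percentage of shared distal peaks that were narrowed in KO, by fixed gene list (dark) or marker list (light) on the left and by RNA class of the nearest gene in the 3 WT libraries on the right, with the number narrowed over the number shared beside each bar and the overall 2.56% as a dashed line. Phototransduction and rod markers stand highest on the left, and the shares step down on the right from 7.11% to 1.21% before the class under 5 CPM.

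Promoter peaks played no part in the choice of members. Of the 968 genes, 796 had a matched promoter pair, with a median KO to WT length ratio of 1.03, and 243 of these (30.5%) were shorter in KO. The shared distal peaks of the same genes that were not narrowed had a median ratio of 1.04. The peaks at the starts of Pdc, Rgs9 and Slc24a1 are not among the 796 pairs, and the last went from 10816 to 7742 bases. For the 24 genes with 3 or more narrowed peaks and a promoter pair the median ratio was 0.99, and 15 (62.5%) were shorter. For genes with only other shared distal peaks the median was 1.06, and 21.1% were shorter.

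RNA was then read for the same genes. The target gene Spata7 had 20.2 to 32.2 CPM over all wells of the 3 WT libraries and 1.381 to 4.07 CPM in the 3 KO libraries. In the rod-rich wells used below it had 18.4, 33.8 and 8.10 CPM in WT at 1, 3 and 6 months and 0.94, 2.60 and 6.84 CPM in KO, so the genotypes were barely apart at 6 months. It had 3 shared distal peaks and 0 narrowed. Rod-rich wells numbered 108 to 438 per library, with 5619814 to 61636513 reads, and 24 to 112 wells per library lay within 10% of the cut, so rod-rich is a range and not a cell type. In these wells the 20 rod markers summed to 148963 to 163556 CPM in WT and 88266 to 136188 CPM in KO. All 16 Müller glia markers were detected in them in every library, summing to 1185 to 3645 CPM in WT and 7597 to 13150 CPM in KO. Bipolar markers summed to 296.8 to 822.3 CPM in WT and 1195 to 3670 in KO, and endothelial markers to 7.85 to 111.8 and 214.2 to 305.1. Sums of the amacrine, horizontal, pericyte and astrocyte markers were also higher in every KO library than in any WT library, while those of cone, ganglion cell, microglia and pigment epithelium markers overlapped. These levels moved with genotype, and their part in the RNA results below was not tested. Between 0 and 136 well positions were shared by any 2 libraries.

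No gene passed the test for a genotype difference. edgeR, fitted over 12810 genes with age as a block, called 0 (0%) at an adjusted p under 0.05, with a smallest adjusted p of 0.0586, and 1393 genes (10.9%) had an unadjusted p under 0.05, 470 of them lower in KO (3.67%). DESeq2 on the same reads called 1067 (8.33%). Of the 968 genes named for members, 912 matched the RNA tables and 768 passed the filter on low counts. Among these 768 edgeR called 0, 100 (13.0%) had an unadjusted p under 0.05, and 74 (9.64%) had one with lower RNA in KO. DESeq2 called 57 of the 768 (7.42%); 32 (4.17%) were called lower in KO, against 174 of all 12810 (1.36%).

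Genes of narrowed peaks had a median fitted log2 change of -0.06, against 0.32 over all genes tested and 0.39 for genes with only other shared distal peaks. The fitted change was below 0 for 402 of the 768 (52.3%), against 39.7% of all genes. The sign of that median is not firm: it turned positive with no filter on low counts, in the top 25% of wells by rod share, over all wells and without the 6-month libraries. Scaled only by library totals, the median log2 ratios of the 768 were positive at each age, at 0.38, 0.34 and 0.02 at 1, 3 and 6 months, against 0.59, 0.73 and 0.22 over all genes. On that scale 208 of the 768 (27.1%) were higher in KO at every age and 102 (13.3%) lower, against 32.6% and 6.79% of all genes. For the 27 tested genes with 3 or more narrowed peaks the median fitted change was -0.62, with 20 of 27 below 0. Scaled only by library totals, their median log2 ratios were -0.03, -0.10 and -0.34 at 1, 3 and 6 months. Of the 27, 8 were lower in KO at every age on that scale and 3 higher. The median fitted changes differed between the rod classes used above. Among genes higher in rod-rich wells, but not over 2-fold in all 3 WT libraries, the median was -0.72 for 128 genes of narrowed peaks. It was -0.60 for 518 genes with only other shared distal peaks. Among genes over 2-fold higher the medians were -0.94 and -0.96, and among genes of mixed direction -0.12 and -0.05. In the other classes the medians were positive and lower for genes of narrowed peaks: 0.38 against 0.54 for genes lower in rod-rich wells, 2.08 against 2.62 for genes over 2-fold lower, and 2.07 against 2.69 for genes under 5 CPM. The class under 5 CPM was set on WT reads alone. Its genes could pass the filter on low counts through KO reads, which favours a positive median in both sets. The classes and the fitted changes share the WT rod-rich reads, so a high WT value by chance moves both, and the medians carry no test.

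**Figure D3:**
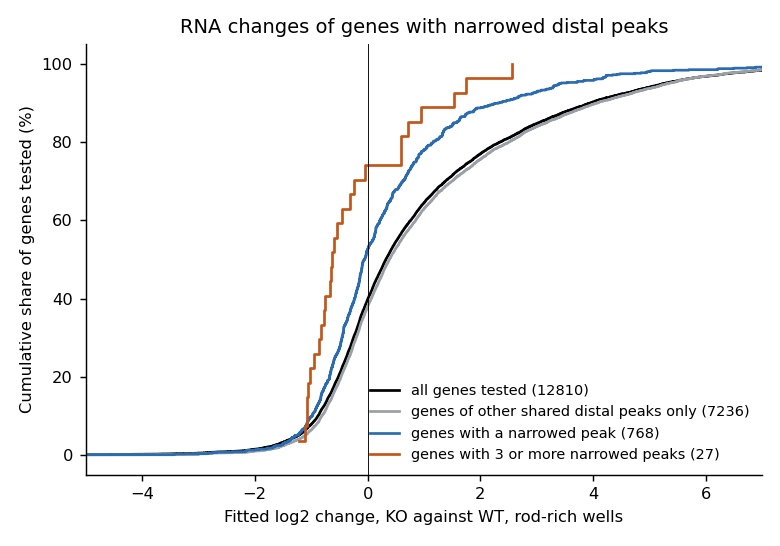
Cumulative share of tested genes (vertical, %) by fitted log2 change of KO against WT in rod-rich wells (horizontal), for all 12810 genes tested, 7236 genes with only other shared distal peaks, 768 genes with a narrowed peak and 27 genes with 3 or more. The curves of the genes with narrowed peaks lie to the left, with medians of -0.06 and -0.62 against 0.32 for all genes.

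The 11 phototransduction genes with a narrowed peak all had a fitted change below 0, with a median of -0.90, and 8 of the 11 had an unadjusted p under 0.05; edgeR's adjusted test called 0 of 11. The 13 genes of the list without a narrowed peak had a median of -0.86, with 13 of 13 below 0 and 8 of 13 at an unadjusted p under 0.05. Scaled only by library totals, the median log2 ratios of the 11 were -0.42, -0.74 and -0.40 at 1, 3 and 6 months. Those of the 13 were -0.06, -0.82 and -0.44. On that scale 7 of the 11 and 7 of the 13 were lower in KO at every age. The CPM printed for single genes below are on that scale, and the fitted changes are not. With no filter on low counts edgeR called 3 of the 11, Gnb1, Cngb1 and Pdc, each lower in KO, against 134 of all 21562 genes (0.62%). Calls among the 13 were not analysed in that setting. The fitted changes of these 2 sets of genes overlapped. Of the 11, Gnb1, Pde6a, Cnga1, Cngb1, Slc24a1 and Pdc are among the 20 markers that chose the wells, while Abca4, Rgs9, Gnb5, Guca1a and Rcvrn are not.

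At the transducin step, Gnb1 stood at 6163, 5295 and 5348 CPM in WT at 1, 3 and 6 months and at 4163, 2699 and 4039 CPM in KO. The WT and KO values did not overlap, and the fitted log2 change was -1.03 with a standard error of 0.31 (edgeR, adjusted p = 0.33). Pde6a stood at 1197, 1060 and 1521 CPM in WT and at 892.4, 661.7 and 982.0 in KO, again without overlap. Its fitted log2 change was -0.96 with a standard error of 0.27 (edgeR, adjusted p = 0.31).

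The channel genes behaved alike. Cngb1 had 3724, 3075 and 3242 CPM in WT and 2347, 1819 and 2210 in KO, with a fitted log2 change of -1.04 and a standard error of 0.29 (edgeR, adjusted p = 0.30). Cnga1 had 2124, 2332 and 2391 CPM in WT and 1593, 1379 and 1838 in KO. All KO values of both genes were below all WT values. DESeq2 called both, with adjusted p values of 0.0055 for Cngb1 and 0.024 for Cnga1. Of the other 9 phototransduction genes with a narrowed peak, DESeq2 also called Gnb1 (adjusted p = 0.0089), Pde6a (0.013), Pdc (0.014) and Slc24a1 (0.024), and did not call Abca4, Rgs9, Gnb5, Guca1a or Rcvrn.

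Abca4, with the most narrowed peaks, had 474.2, 353.0 and 559.2 CPM in WT and 516.8, 261.2 and 381.0 in KO, so its groups overlapped and KO was above WT at 1 month. Its fitted log2 change was -0.67 with a standard error of 0.27 (edgeR, adjusted p = 0.38). Rgs9 overlapped as well, at 422.1, 823.3 and 721.8 CPM in WT and 484.4, 407.9 and 727.5 in KO. Pdc, at 7879, 8697 and 6978 CPM in WT and 5643, 5266 and 5145 in KO, did not overlap. Across these genes the number of narrowed peaks was not in the order of the RNA changes.

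**Figure D4:**
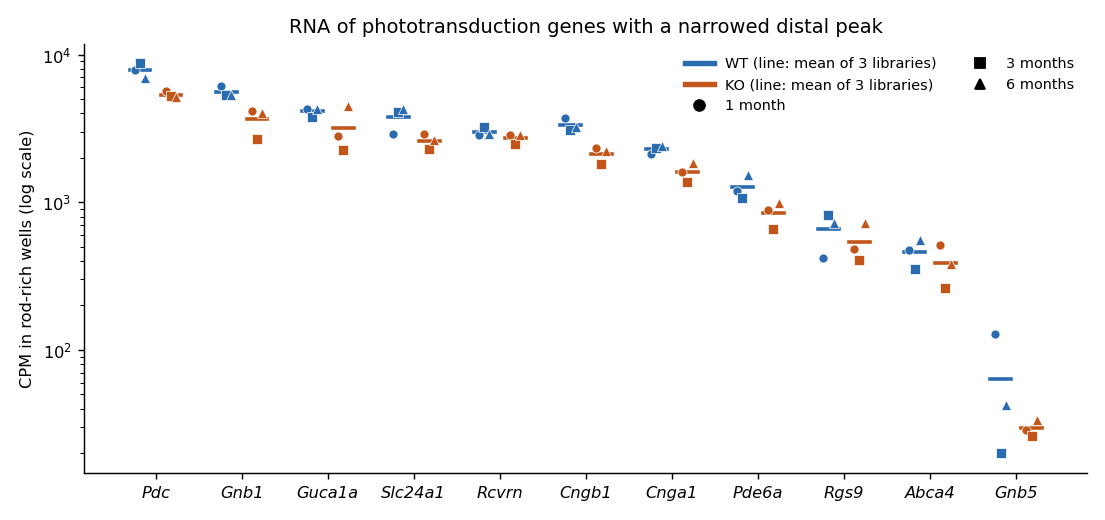
CPM in rod-rich wells (log scale) of the 11 phototransduction genes with a narrowed distal peak, with 1 point per library, shape by age in months, WT in blue and KO in orange, and a line at the mean of the 3 libraries. WT and KO points are apart for Gnb1, Cngb1 and Pde6a and overlap for Abca4, Rgs9 and Gnb5.

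Outside phototransduction, RNA of the named members went in both directions. Unc13b, a synaptic vesicle priming factor, had 136.3, 187.9 and 309.3 CPM in WT and 103.1, 162.3 and 125.4 in KO, with a fitted log2 change of -1.02 (edgeR, adjusted p = 0.35). Tnfaip3, an inhibitor of NF-kappa B signalling with 3 narrowed peaks, had 200.3, 125.8 and 152.8 CPM in WT and 97.68, 75.98 and 91.84 in KO, without overlap, and a fitted log2 change of -1.21 (edgeR, adjusted p = 0.31). Alpl had 145.5, 140.9 and 167.5 CPM in WT and 143.4, 90.30 and 99.12 in KO. Ank3, which encodes ankyrin-G and had 3 narrowed peaks, was higher in KO at every age, at 31.02, 76.16 and 87.78 CPM in WT and 135.0, 141.1 and 174.4 in KO, with a fitted log2 change of 0.95 (edgeR, adjusted p = 0.37). In WT its log2 ratio of CPM in rod-rich to other wells was -2.30, -1.50 and -2.06 at 1, 3 and 6 months. The part of other cell types in its KO values was not tested. DESeq2 called Tnfaip3 (adjusted p = 0.025) and not Unc13b, Alpl or Ank3. Neurod1, a photoreceptor maintenance factor, had a fitted log2 change of -0.02, and Otx2 had 0.33. The cone opsin gene Opn1mw, with 1 narrowed peak, had 88.08, 757.0 and 196.4 CPM in WT and 826.0, 883.8 and 336.3 in KO. The 12 cone markers, Opn1mw among them, summed to 342, 3452 and 1882 CPM in WT in the same wells. They summed to 5035, 6765 and 2965 CPM in KO, and the part of cone RNA in the Opn1mw values was not tested. Its fitted log2 change was 1.00 and ranged from -0.78 to 2.20 over the alternative settings; edgeR called it only in the top 25% of wells by rod share (adjusted p = 0.015).

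The lowest fitted changes with 1 direction at all ages and a mean of at least 5 CPM were at Ankrd44, Nup98, 1600014C23Rik, Hfe, Ankdd1b and Ttc23. Over the alternative settings the fitted change of Nup98, a nuclear pore protein, ranged from -3.45 to 0.32, so its direction was not kept. Ankrd44, whose narrowed peak was among the longest in WT, had 7.84, 97.3 and 19.9 CPM in WT and 3.06, 1.57 and 3.82 in KO, with a fitted log2 change of -3.43 and a standard error of 1.14 (edgeR, adjusted p = 0.35). The 3-month WT library held the highest of its WT values, and the fitted change ranged from -4.40 to -1.53 over the alternative settings. Hfe, a regulator of iron uptake, had 53.1, 21.7 and 37.6 CPM in WT and 4.07, 6.48 and 10.9 in KO, without overlap. The gene 1600014C23Rik had 56.2, 155.9 and 36.97 CPM in WT and 34.9, 12.0 and 4.83 in KO, with a fitted log2 change of -2.84 and a standard error of 0.64 (edgeR, adjusted p = 0.22). DESeq2 called Ankrd44 (adjusted p = 0.0034), 1600014C23Rik (0.00035) and Hfe (0.0061), and not Nup98, Ankdd1b or Ttc23. edgeR called 1600014C23Rik with no filter on low counts and without the 6-month libraries.

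The highest fitted changes were at Clec2l, Pdlim3, Tpbg, Add2, Fbxo33 and Engase, genes with few or no reads in WT rod-rich wells, so no fold is given for them. In WT, the log2 ratio of CPM in rod-rich to other wells was -6.13, -4.91 and -1.98 at 1, 3 and 6 months for Pdlim3. It was below 0 at each age for Clec2l, Tpbg, Add2 and Fbxo33, and above 0 only at 3 months for Engase. Marker sums of several other cell types were higher in KO rod-rich wells, and their part in these values was not tested. Pdlim3, a PDZ and LIM domain protein of the actin cytoskeleton, had 23, 0 and 18 reads in WT and 1392, 1360 and 2992 in KO, and it had the smallest adjusted p among all genes of narrowed peaks (edgeR, adjusted p = 0.11). Clec2l had 5, 0 and 0 reads in WT and 177, 256 and 341 in KO, and Fbxo33, an F-box protein, had 30, 0 and 9 reads in WT and 414, 376 and 1320 in KO. Each of the 6 had only 1 or 2 narrowed peaks; Pdlim3 had 1 of 9, and Tpbg 1 of 3. edgeR called Pdlim3 with no filter on low counts and without the 3-month or the 6-month libraries. DESeq2 called all 6, with adjusted p values from 2.51e-11 for Pdlim3 to 0.022 for Engase. These 6 reached the mean of 5 CPM mostly through KO reads and were picked as the highest changes. Their direction was thus set by the choice, and the calls are given as description. Fgfr2, Ntng2 and Slc7a15, with 3 or 4 narrowed peaks each, had too few reads in rod-rich wells to be tested.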

How the data were processed

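The members and gene lists were chosen with earlier results of these data known. The files deposited by the authors are tables of raw read counts per Ensembl gene and well for 6 RNA libraries, made with CASAVA, TopHat2 and HTSeq on mm10 (GRCm38), with Seurat also named, and 2 peak lists made with Cell Ranger ATAC 1.1.0 on mm10, all per the submitters' processing notes. Per the file headers, the peak lists deposited by the authors give chromosome, start, end, gene, distance in bases and peak type, with no height, so ATAC depth is unknown. Lengths are end minus start; the base from which starts count is not given in the sources used here.

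Peaks were paired at an overlap of at least 1 base in Python 3.11.15 (pandas 2.3.3). A positive distance was downstream of the RefSeq start in 9674 of 9677 peaks checked. The pairing was tested on simulated lists. Of 3747 wells, 3746 were used, each with a minimum of 300 genes detected and mitochondrial genes holding no more than 30% of its reads; no doublet caller was run. Rod-rich wells were the upper part, cut at the median, of each library by share of reads on 20 rod markers, and their reads were summed. edgeR 4.0.16 (quasi-likelihood, TMM, filterByExpr, age as a block, Benjamini-Hochberg) was fitted to the sums with 2 residual degrees of freedom, and DESeq2 1.42.0 was an alternative. The fit was tested on simulated data. With 1 library per genotype and age, p-values measure spread between libraries. RNA classes required a mean of 5 CPM, and ratios of CPM used a pseudocount of 1. Genes named were fixed by rule: members on the fixed lists (at most 30 by mean CPM), the 8 genes with most members, the 8 largest losses, 4 pairs on each side of the threshold, and the 6 highest and 6 lowest fitted changes. Tnfaip3, Ank3, Galnt10, Tgfbr1, Slc7a15 and the other genes at printed sequences were named after their values were seen. A few genes that the rule names, and 1 alternative setting, are not reported here.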

Additional observations from a re-analysis of the deposited data

How the results depend on the processing

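The number of narrowed peaks was 521 when the KO peak had to be at most 0.333 times as long and 1940 at 0.667 times. It stayed between 952 and 963 under the other overlap and annotation rules, and 739 members remained with KO peaks of at least 50 bases, a limit chosen after seeing the data. The share of members at a listed distance of 0 was 11.8% when only the first listed gene counted, against 9.55% of the other shared pairs.

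edgeR's 0 calls became 134 with no filter on low counts, 14 in the top 25% of wells by rod share and 1 over all wells, and DESeq2 called 1067. Leaving out 1 age in turn gave 0 to 132 calls: 0 without 1 month, 84 without 3 months and 132 without 6 months. RLE scaling and a fit without age called 0. Among genes of narrowed peaks the calls were 9 of 867 tested with no filter (1.04% called, against 0.622% of all). In the top wells 1 of 726 was called (0.14% against 0.13%). The calls were 4 of 783 without 3 months (0.511% against 0.600%) and 9 of 765 without 6 months (1.18% against 1.02%). The cause was not tested.

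The median fitted log2 change of member genes turned positive with no filter (0.0199), in those top wells (0.159) and over all wells (0.0438), and ranged from -0.114 to 0.0382 on leaving out 1 age in turn, with 0.0382 without 6 months. The median of all genes was above that of the members in each of these settings, at 0.92 with no filter, 0.43 in the top wells, 0.13 over all wells and 0.43 without 6 months. The fit blocks on age, which sets 1 WT against 1 KO library at each age; without the age block edgeR called 0 and the members' median was -0.169. With 2 residual degrees of freedom and a common dispersion of 0.763, the fit had little precision for single genes. Peak lists without heights limit the ATAC values to called lengths.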
